A study of Mus musculus with 8 samples.

Results

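Cholesterol-handling genes were followed in 3T3-L1 adipocytes, fat cells grown in culture from a mouse fibroblast line, in 3 insulin resistance models. The list holds 32 genes by symbol, chosen for their roles in making, sensing, moving and exporting cholesterol. Of these 30 had a probe set assigned to that gene alone, out of 18193 genes measured, and Acat2 and Nr1h2 did not. In the CI model the cells received chronic insulin (2 arrays), in the TNF model tumour necrosis factor (3 arrays) and in the Dex model the synthetic glucocorticoid dexamethasone (3 arrays). Doses and durations of these agents are not given in the labels. MnTBAP, a cell-permeable antioxidant, was present during the final 6 hours in all 8 samples, so the effect of the antioxidant itself is not measured by any comparison. Untreated cells were not analysed here, so a lower level in TNF or Dex may as well be a raised level in CI. Whether the arrays of a model came from separate cultures is not stated in the labels, so the p-values reflect sample-to-sample spread that could be technical alone.

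Animal cells build cholesterol from acetyl-CoA through mevalonate and the isoprenoids to squalene, which is folded into lanosterol and then trimmed to cholesterol. When sterols in the endoplasmic reticulum run low, SCAP escorts the transcription factor SREBP2 to the Golgi for cleavage, and the released factor switches on the genes of synthesis and uptake. When sterols are plentiful, INSIG proteins hold SCAP back, while oxysterols activate the liver X receptors (LXR), which switch on cholesterol export. In fat cells much of the free cholesterol sits at the surface of the lipid droplet.

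Where a gene had several probe sets, the brightest on average stood for it, on the log2 intensity scale. The words rise, fall and change are kept for differences where limma, fitted to all 8 arrays, gave an adjusted p under 0.05 together with a difference over 0.5 on the log2 scale, and the ± value after a difference is the standard error (SE) of that fit. Median intensities of the arrays lay between 124.7 and 130.97, and the small number of arrays limits the precision reached here. Between groups this small, values often separate fully. Every TNF array lay below both CI arrays in 24.7% of all genes and above both in 28.3%. For Dex against CI the shares were 23.1% and 24.9%, and for TNF against Dex 17.9% and 18.0%. The tissue label names preadipocytes, whereas the adipocyte genes Adipoq and Fabp4 averaged 14.36 and 14.39 in CI, close to the largest values of the arrays, and the leukocyte marker Ptprc averaged 4.60, below the median gene (7.91). As a check of the labels, TNF exceeded CI by 5.19 ± 0.11 in Saa3, an acute phase gene, and Dex exceeded CI by 2.96 ± 0.08 in the glucocorticoid target Fkbp5. Some arrays stood apart within their model. TNF replicate 1 had the lowest value of the TNF arrays in 17 of the 19 synthesis enzymes (37.9% of all genes), and Dex replicate 3 the highest of the Dex arrays in 19 of 19 (37.4% of all genes). For beta-actin the 3′ probe set minus the 5′ probe set, a measure of RNA integrity, was 0.66 and 0.54 in the CI arrays, 0.74, 0.71 and 0.83 in those of TNF, and 0.49, 0.49 and 0.75 in those of Dex. Its part in the results was not tested beyond the fits given with them.

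Dexamethasone-treated cells had the lowest levels of nearly the whole synthesis pathway, cells under TNF lay between, and cells under chronic insulin were highest. Of the 19 measured enzymes, 17 fell in Dex against CI and 0 rose, with a median difference of -1.44 on the log2 scale, while over all genes tested the median was 0.02 and 9.00% were called (5.67% lower and 3.33% higher). In TNF against CI 10 of the 19 fell and 0 rose, with a median of -0.54, against a median of 0.03 over all genes and a background of 8.22% called (5.23% lower and 3.00% higher). Between TNF and Dex, 15 of the 19 were higher in TNF and 0 lower (median 0.95, with 7.30% of all genes called, 4.14% higher and 3.16% lower). In TNF against CI, leaving out TNF replicate 1 brought Mvk (-0.48), Pmvk (-0.49), Fdft1 (-0.45), Hsd17b7 (-0.45) and Dhcr7 (-0.46) under the size threshold. Without CI replicate 2, Mvk (-0.60), Pmvk (-0.59), Hsd17b7 (-0.63) and Dhcr7 (-0.60) stayed past it but missed the adjusted p. The same held without CI replicate 1 for Hsd17b7 (-0.56) and Dhcr7 (-0.55). In TNF against Dex, Cyp51 was not called without TNF replicate 2 (0.47) or Dex replicate 1 (0.47). Nor was it with the beta-actin 3′ minus 5′ difference as a covariate (0.47, limma adjusted p = 0.107). Dex replicate 3 is in these Dex values, and without it 22 rather than 23 of the 30 genes changed against CI. In bulk RNA, fewer cells making a transcript and less transcript per cell cannot be told apart.

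**Figure D1:**
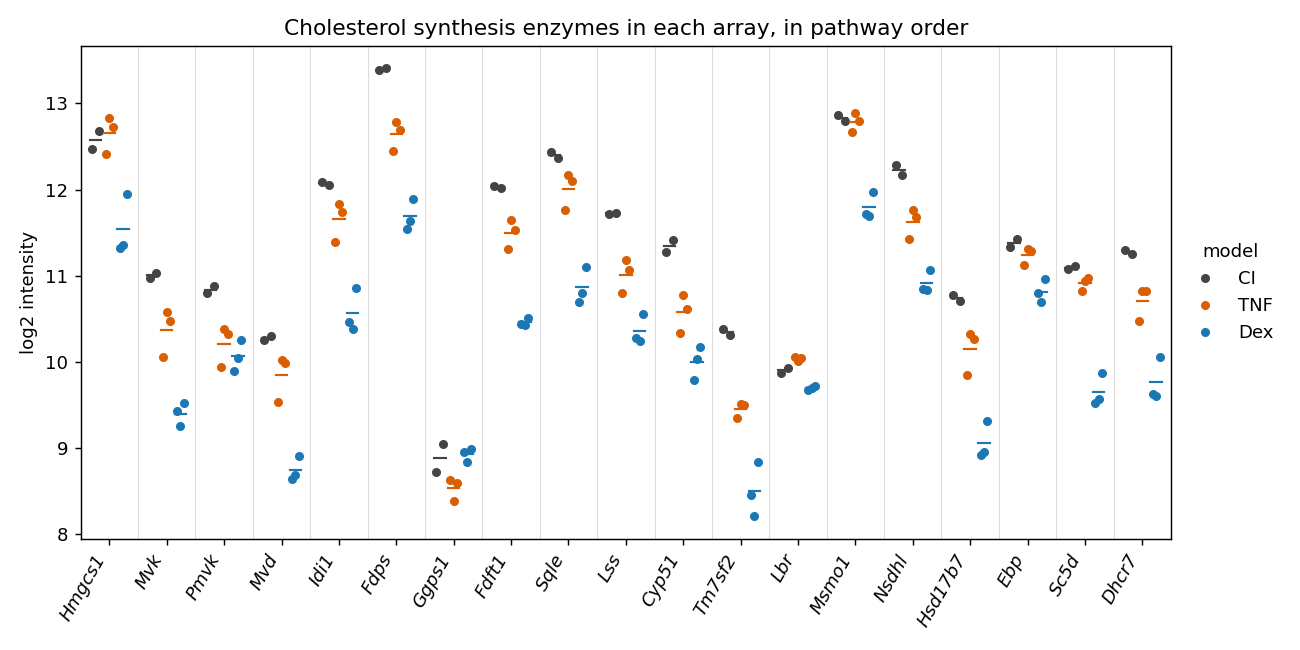
Log2 intensity (vertical axis) of the 19 synthesis enzymes in pathway order (horizontal axis) in each array, with 1 colour for each model and bars for the model means. Levels of different genes come from different probe sets and are not comparable with each other; within a gene, Dex lies below CI in all but Ggps1, and TNF lies between them for most, as in Fdps with 13.39 and 13.41 in CI, 12.44 to 12.79 in TNF and 11.55 to 11.89 in Dex.

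The early steps turn acetyl-CoA units into mevalonate and then into isoprenoids. Mvk, mevalonate kinase, lay at 10.97 and 11.03 in CI, against 10.06, 10.58 and 10.47 in TNF and 9.42, 9.26 and 9.52 under Dex. The 3 models did not overlap, and Mvk was lower than in CI by -0.63 ± 0.14 in TNF and by -1.60 ± 0.14 in Dex. For Mvd, which decarboxylates mevalonate diphosphate, the arrays read 10.25 and 10.30 in CI, 9.54, 10.02 and 9.98 in TNF and then 8.64, 8.69 and 8.91 in Dex. Its fall in Dex was -1.53 ± 0.14, a level 2.89-fold below CI, and its difference in TNF, -0.43 ± 0.14, did not pass the size threshold. Idi1, the isomerase that makes the reactive isoprenoid unit, was at 12.09 and 12.06 in CI, against 11.39, 11.83 and 11.74 in TNF and 10.46, 10.38 and 10.86 under Dex. It fell in Dex by -1.51 ± 0.15, while the TNF difference of -0.42 ± 0.15 missed the adjusted threshold (limma adjusted p = 0.0661).

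Fdps, which joins these units into farnesyl diphosphate, showed the largest fall of the mevalonate and isoprenoid steps, -1.71 ± 0.12 in Dex (limma adjusted p = 1.75e-06) and -0.76 ± 0.12 in TNF (adjusted p = 0.000941). In CI it read 13.39 and 13.41, in TNF 12.44, 12.79 and 12.70, and in Dex 11.55, 11.63 and 11.89. Pmvk, phosphomevalonate kinase, fell in both TNF and Dex without a called difference between them. It fell by -0.63 ± 0.14 in TNF and by -0.77 ± 0.14 in Dex, and TNF minus Dex was 0.15 ± 0.12. Hmgcs1 makes the precursor of mevalonate. On its brightest probe set TNF, at 12.41, 12.83 and 12.73, overlapped CI, at 12.47 and 12.68 (0.08 ± 0.18). It fell in Dex by -1.04 ± 0.18, with Dex replicate 3 at 11.94 and the others at 11.32 and 11.35. Its dimmer probe sets differed from CI by -0.22, -0.03, -0.22 and 0.52 in TNF, and by -1.36, -1.14, -1.28 and -0.35 in Dex. On the first of these every TNF array lay below both CI arrays, as in 24.7% of all genes. Ggps1 draws farnesyl diphosphate away from sterols to make the geranylgeranyl lipid of prenylated proteins. With Lbr, it was an enzyme not called in Dex against CI (0.04 ± 0.11), and its values of 8.95, 8.84 and 8.99 there overlapped those of CI, 8.73 and 9.04.

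The enzymes that make squalene and close it into the sterol rings fell in Dex by similar amounts. Fdft1, which commits farnesyl diphosphate to squalene, was at 12.05 and 12.02 in CI, 11.31, 11.64 and 11.53 in TNF and then 10.44, 10.43 and 10.51 in Dex. The arrays of each model were close together, and the fall was -1.57 ± 0.09 in Dex (limma adjusted p = 6.49e-07) and -0.54 ± 0.09 in TNF. Its dimmer probe sets differed from CI by -0.496, 0.04 and -0.03 in TNF, and by -1.65, -0.11 and -0.24 in Dex. The first of these has the highest variance, and with it Fdft1 was not called in TNF. Sqle, squalene epoxidase, a rate-controlling enzyme of the sterol branch, read 12.44 and 12.37 in CI, against 11.77, 12.17 and 12.10 in TNF and 10.69, 10.80 and 11.10 under Dex. It fell in Dex by -1.54 ± 0.14, to a level 2.90-fold below CI. Every TNF array lay under both CI arrays, as in 24.7% of all genes. The TNF difference of -0.39 ± 0.14 did not pass (limma adjusted p = 0.0610). Lss, which folds the epoxide into lanosterol, had 11.72 and 11.73 in CI, 10.80, 11.18 and 11.07 in TNF and then 10.27, 10.24 and 10.55 in Dex. Its falls were -0.71 ± 0.12 in TNF and -1.37 ± 0.12 in Dex, but its 2 dimmer probe sets differed by 0.48 and -0.25 in TNF and by -0.15 and -0.55 in Dex against CI. With the median over probe sets Lss was not called in Dex (-0.15, limma adjusted p = 0.358).

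Enzymes that trim lanosterol to cholesterol ranged from the largest change of the synthesis list, in Tm7sf2, to no called change, in Lbr. Tm7sf2, a sterol reductase, read 10.39 and 10.31 in CI, against 9.34, 9.52 and 9.50 in TNF and 8.45, 8.21 and 8.84 under Dex. Its level was 1.86-fold below CI in TNF (-0.89 ± 0.15, limma adjusted p = 0.00131) and 3.60-fold below in Dex (-1.85 ± 0.15, adjusted p = 5.38e-06), the largest difference of any of the 19 enzymes in each comparison with CI. Lbr can carry out the same reduction from the nuclear envelope, and it did not follow, with 9.88 and 9.93 in CI, 10.05, 10.02 and 10.05 in TNF and then 9.67, 9.69 and 9.71 in Dex. Its differences from CI were 0.13 ± 0.07 in TNF and -0.21 ± 0.07 in Dex, neither of which reached the size threshold. Cyp51, the lanosterol demethylase, was at 11.28 and 11.41 in CI, against 10.33, 10.78 and 10.61 in TNF and 9.79, 10.03 and 10.18 under Dex. It fell by -0.77 ± 0.14 in TNF and by -1.35 ± 0.14 in Dex.

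Hsd17b7, which reduces a keto group of the sterol ring, had 10.78 and 10.71 in CI, 9.85, 10.33 and 10.27 in TNF and then 8.92, 8.96 and 9.31 in Dex. Both TNF and Dex were lower than CI, by -0.59 ± 0.15 in TNF and by -1.68 ± 0.15 in Dex. Nsdhl, which acts just before it, fell by -0.60 ± 0.11 and by -1.31 ± 0.11. Dhcr7, which turns the sterol that is also the precursor of vitamin D into cholesterol, read 11.30 and 11.25 in CI, against 10.47, 10.82 and 10.82 in TNF and 9.62, 9.60 and 10.06 under Dex. Its falls were -0.57 ± 0.14 in TNF and -1.52 ± 0.14 in Dex.

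Several sterol enzymes were lower in Dex with little difference between TNF and CI. Sc5d, the desaturase before Dhcr7, lay at 11.07 and 11.12 in CI and at 10.83, 10.94 and 10.97 in TNF, but at 9.52, 9.57 and 9.87 in Dex. Its fall in Dex was -1.44 ± 0.10 and its TNF difference -0.18 ± 0.10, and TNF exceeded Dex by 1.26 ± 0.09. Its dimmer probe sets differed by -0.11 and -0.67 in Dex against CI, and with the median over probe sets Sc5d was called neither there (-0.24, limma adjusted p = 0.229) nor in TNF against Dex (0.47). The C4 oxidase Msmo1 fell in Dex by -1.03 ± 0.10 and differed by -0.04 ± 0.10 in TNF, where its values of 12.67, 12.89 and 12.79 overlapped those of CI, 12.86 and 12.80. Ebp, the sterol isomerase, fell in Dex by -0.56 ± 0.09 and differed by -0.14 ± 0.09 in TNF. Msmo1, Ebp, Nsdhl, Pmvk, Hmgcs1, Ggps1 and Lbr are named here outside the rule for full values, after those values had been seen.

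**Figure D2:**
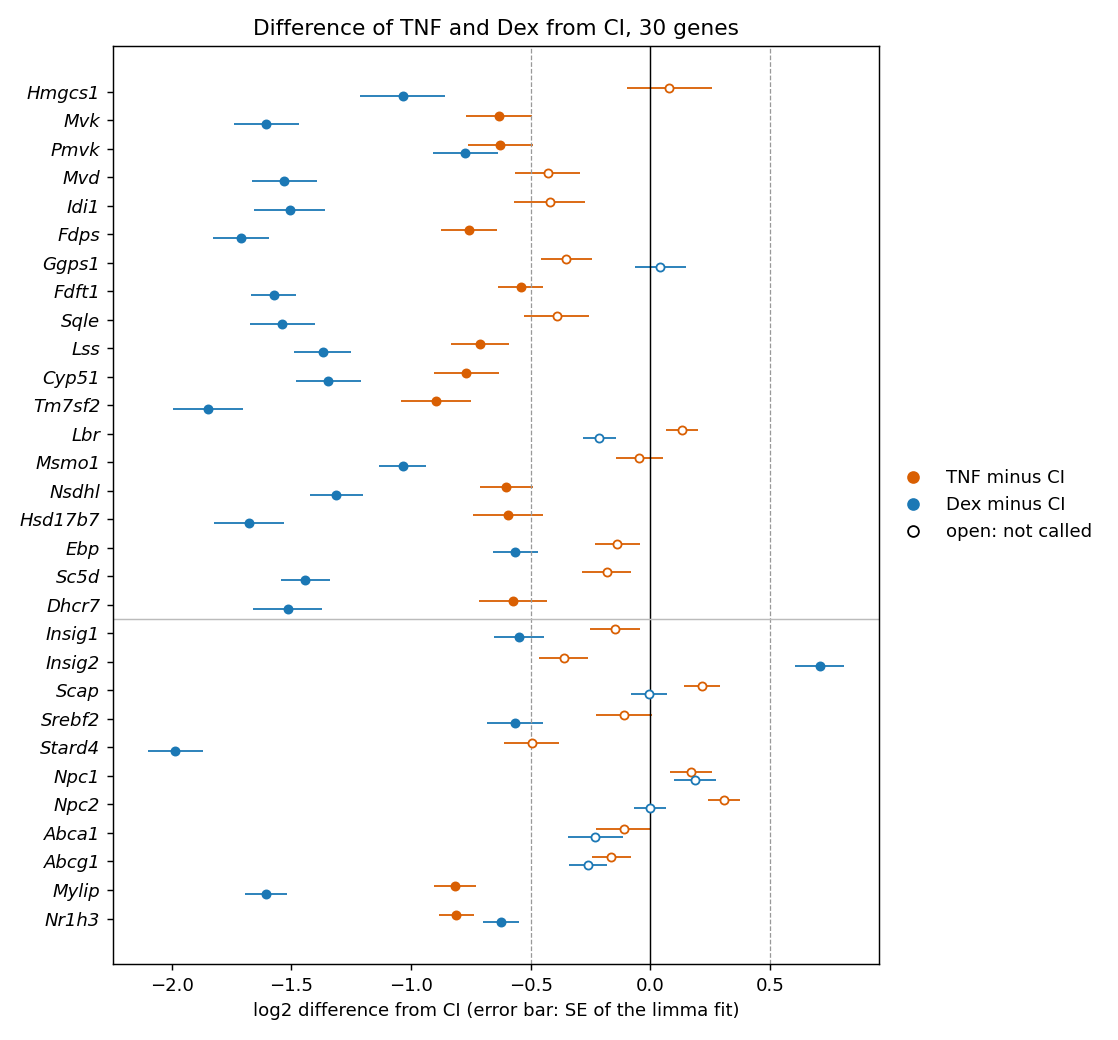
Log2 difference from CI (horizontal axis, error bars the SE of the limma fit) for the 30 measured genes, TNF in orange and Dex in blue, with filled points where the difference passed the test and dashed lines at a difference of 0.5 in either direction. Synthesis enzymes are above the grey line, where the Dex points lie to the left of the TNF points in 18 of 19 genes; below it, Insig2 is the gene with a filled point on the right (0.71 in Dex).

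Most of these genes also kept a strict order. In 14 of the 19 synthesis enzymes every CI array lay above every TNF array and every TNF array above every Dex array, an order found in 3.11% of all genes. The comparisons with CI share the same 2 CI arrays. The probe sets of a gene mostly pointed the same way in Dex against CI, and less so in TNF. SREBP2-driven genes were taken as the synthesis enzymes with Insig1, Srebf2 and Stard4, of which 22 were measured, with 49 probe sets between them. Of those, 44 had a lower mean in Dex than in CI and 38 a lower mean in TNF than in CI. Among the 39 brighter than the median gene the numbers were 36 and 33, with medians of -1.35 and -0.43. Among the 10 at or below the median gene they were 8 and 5. These counts include the chosen probe sets, on which 21 of the 22 genes had a lower mean in Dex and 20 in TNF. Over all 18193 genes, 8274 had a lower mean in Dex than in CI and 8144 in TNF than in CI.

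The start sites of these genes were read from the RefSeq promoter table (GRCm38.p6) because the synthesis genes moved together. It held entries for 24 of the 30 measured genes, and for 18 of the 22 SREBP2-driven ones. The 250 bases before each start were searched on both strands for CACCCCAC, the core of the classical SREBP element, for the full classical element, for CCAAT, the site of the SREBP partner NF-Y, for the E-box CACGTG, and for the perfect direct repeat of the LXR type. CCAAT was present at a start site of 18 of the 18 SREBP2-driven genes with an entry, compared with 37.5% of all genes. It was at 85.7% of their start sites against 33.8% of all start sites. These genes include Ggps1 and Lbr, which were not called in Dex against CI. Of all members with an entry 21 of 24 held CCAAT. Outside the SREBP2-driven set, Insig2, which rose in Dex, Npc2 and Mylip held it, and Abca1, Scap and Nr1h3 did not. The E-box was found in 4 of the 18 SREBP2-driven genes (22.2%, against 6.86% of all genes), and the SREBP core in 1, Hmgcs1 (5.56%, against 2.98%). The full element occurred in 0 of them (0.0814% of all genes) and the LXR repeat in 0 of the 24 members (0.0148%). A match is a description of the letters, and the absence of these exact letters from this window says nothing about the factor. Stretches of 6 genes are printed 5′ to 3′ on the strand of the gene, ending at the base before the start site, with every match to the NF-Y site, the SREBP core and the E-box, on either strand, in capitals. Hmgcs1, Mvk and Tm7sf2 show synthesis genes with the SREBP core, with repeated CCAAT and with a single CCAAT, Insig1 the feedback gene with both a CCAAT and an E-box, and Mylip and Abca1 a pair of LXR-driven genes that differed in these data. The windows are chr13:119690101-119690350 (plus strand) for Hmgcs1, chr5:114444019-114444268 (plus) for Mvk, chr19:6067851-6068100 (minus) for Tm7sf2, chr5:28071162-28071411 (plus) for Insig1, chr13:45389492-45389741 (plus) for Mylip and chr4:53159896-53160145 (minus) for Abca1.
Hmgcs1: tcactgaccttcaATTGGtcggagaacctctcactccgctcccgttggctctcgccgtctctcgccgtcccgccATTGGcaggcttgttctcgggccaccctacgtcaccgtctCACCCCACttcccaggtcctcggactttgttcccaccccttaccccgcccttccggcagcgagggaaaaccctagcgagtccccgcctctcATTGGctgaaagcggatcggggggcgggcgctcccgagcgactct
Mvk: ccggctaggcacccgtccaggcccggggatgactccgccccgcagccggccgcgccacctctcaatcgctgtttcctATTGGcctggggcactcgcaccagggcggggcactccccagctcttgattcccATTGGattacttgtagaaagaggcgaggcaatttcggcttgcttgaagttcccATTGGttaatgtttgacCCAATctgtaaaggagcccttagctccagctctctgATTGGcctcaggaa
Tm7sf2: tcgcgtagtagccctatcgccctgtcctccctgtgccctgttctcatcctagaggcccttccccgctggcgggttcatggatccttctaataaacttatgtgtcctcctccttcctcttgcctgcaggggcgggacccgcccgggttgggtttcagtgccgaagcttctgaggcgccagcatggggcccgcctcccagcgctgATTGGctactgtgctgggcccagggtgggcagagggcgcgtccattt
Insig1: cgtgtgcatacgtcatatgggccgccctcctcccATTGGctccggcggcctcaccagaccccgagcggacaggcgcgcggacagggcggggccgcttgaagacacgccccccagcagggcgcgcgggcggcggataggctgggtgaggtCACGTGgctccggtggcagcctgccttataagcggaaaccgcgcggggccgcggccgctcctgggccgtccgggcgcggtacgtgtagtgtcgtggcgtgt
Mylip: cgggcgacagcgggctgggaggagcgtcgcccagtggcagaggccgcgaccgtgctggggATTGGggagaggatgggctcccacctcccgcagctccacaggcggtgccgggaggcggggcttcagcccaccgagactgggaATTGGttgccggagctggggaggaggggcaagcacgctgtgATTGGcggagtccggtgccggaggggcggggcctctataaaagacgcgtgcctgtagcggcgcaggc
Abca1: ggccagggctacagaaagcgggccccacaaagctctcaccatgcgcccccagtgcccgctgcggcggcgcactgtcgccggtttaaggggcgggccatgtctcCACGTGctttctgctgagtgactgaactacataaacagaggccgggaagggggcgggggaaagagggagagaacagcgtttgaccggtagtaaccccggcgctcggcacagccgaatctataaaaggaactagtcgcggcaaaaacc

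Sensing genes did not move as a block. Insig2, an endoplasmic reticulum protein that retains SCAP, was, on the brightest probe set of each gene, the only member to rise in any comparison with CI. It read 10.12 and 10.06 in CI, 9.80, 9.72 and 9.66 in TNF and then 10.63, 10.78 and 11.00 in Dex, so that no pair of models overlapped. Dex exceeded CI in Insig2 by 0.71 ± 0.10 (1.63-fold, limma adjusted p = 0.000441, against 3.33% of all genes called higher) and exceeded TNF 2.10-fold (TNF minus Dex, -1.07 ± 0.09). Its other 2 probe sets differed by 0.85 and 0.69 between Dex and CI. Insig1, the family member that SREBP2 itself switches on, went the other way, with 10.71 and 11.00 in CI, against 10.65, 10.76 and 10.72 in TNF and 10.23, 10.47 and 10.22 under Dex. It fell in Dex by -0.55 ± 0.10, close to the size threshold, and it was not called without CI replicate 2 (-0.41) or after quantile normalization (-0.497).

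Srebf2, which encodes SREBP2, had 9.96 and 10.22 in CI, 10.08, 9.83 and 10.03 in TNF and then 9.64, 9.59 and 9.34 in Dex. TNF overlapped CI (-0.11 ± 0.12), and Dex was lower by -0.57 ± 0.12. That call was lost with the median over probe sets (-0.33), without Dex replicate 3 (-0.47) and without CI replicate 2 (-0.43, limma adjusted p = 0.0687). A second, dimmer probe set of Srebf2 differed by -0.09. Scap, the escort protein, was level between CI (10.36 and 10.28) and Dex (10.33, 10.28 and 10.34), at -0.01 ± 0.08, and its TNF values of 10.57, 10.44 and 10.60 lay above CI by 0.22 ± 0.08, which did not pass.

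Intracellular cholesterol carriers differed sharply among themselves. Stard4, a soluble sterol carrier and SREBP2 target, had the largest difference from CI of all 30 genes. It read 10.87 and 10.92 in CI, against 10.21, 10.46 and 10.53 in TNF and 8.85, 8.77 and 9.10 under Dex, with no overlap between models. Stard4 was 3.96-fold lower in Dex than in CI (-1.99 ± 0.11, limma adjusted p = 4.82e-07) and 2.81-fold lower than in TNF. The TNF difference of Stard4 from CI, -0.496 ± 0.115, fell just short of the size threshold (limma adjusted p = 0.00971). Its other 2 probe sets gave -2.15 and -1.69 for Dex minus CI, and -0.93 and -0.54 for TNF minus CI. Npc1 and Npc2 hand cholesterol out of the lysosome. Npc1 had 7.99 and 8.28 in CI, 8.27, 8.33 and 8.33 in TNF and then 8.33, 8.29 and 8.36 in Dex, and was not called in any comparison. Npc2, among the brightest genes of the arrays, read 13.87 and 13.87 in CI, against 14.18, 14.15 and 14.21 in TNF and 13.86, 13.84 and 13.90 under Dex. Its TNF values lay above all others, and 28.3% of all genes had every TNF array above both CI arrays. The difference from CI, 0.31 ± 0.07 (limma adjusted p = 0.00748), was under the size threshold. Its other 3 probe sets differed from CI by 0.38, 0.09 and 0.62 in TNF and by -0.01, 0.10 and 0.54 in Dex. The last of these, the most variable, was called higher in TNF (limma adjusted p = 0.000588) and in Dex (adjusted p = 0.000978) when it stood for the gene.

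**Figure D3:**
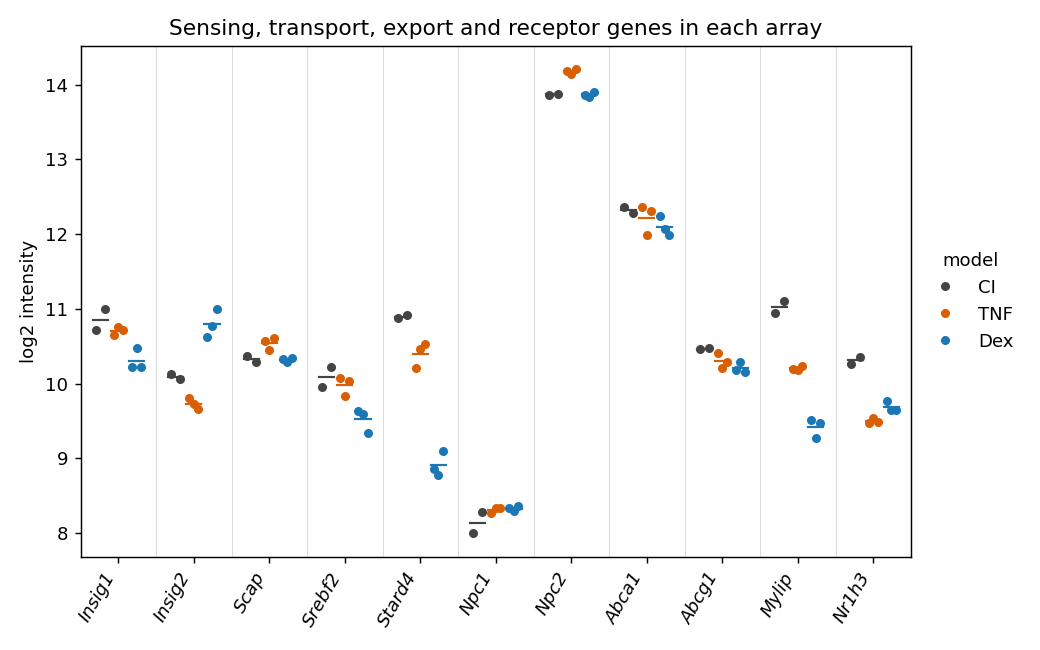
Log2 intensity (vertical axis) of 11 sensing, transport, export and receptor genes (horizontal axis) in each array, with 1 colour for each model and bars for the model means. Stard4 and Mylip step down from CI to TNF to Dex, Insig2 is highest in Dex (10.63 to 11.00), and the exporter Abca1 overlaps between TNF and both other models.

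Genes of the LXR arm were set against the SREBP2-driven ones. The exporters showed small differences. Abca1, which loads cholesterol onto apolipoproteins, read 12.37 and 12.29 in CI, 12.36, 11.98 and 12.31 in TNF and then 12.24, 12.07 and 11.99 in Dex. It was not called in any comparison (-0.11 ± 0.12 for TNF and -0.23 ± 0.12 for Dex against CI). Its dimmer probe sets differed by -0.41 and -0.62 in TNF against CI, and by -0.18 each in Dex. Abcg1, which passes cholesterol to high-density lipoprotein, had 10.46 and 10.47 in CI, against 10.41, 10.21 and 10.29 in TNF and 10.18, 10.28 and 10.15 under Dex. All Dex values lay below CI, as in 23.1% of all genes. The difference of -0.26 ± 0.08 was under the size threshold, as was -0.16 ± 0.08 in TNF. A dimmer probe set differed by 0.21 in Dex and 0.13 in TNF.

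Mylip, a ubiquitin ligase that LXR switches on and that marks lipoprotein receptors for breakdown, did not stay with the exporters. It lay at 10.95 and 11.10 in CI, 10.20, 10.18 and 10.24 in TNF and then 9.51, 9.27 and 9.47 in Dex. The models did not overlap, and Mylip was 1.76-fold lower than in CI in TNF (-0.82 ± 0.09, limma adjusted p = 8.72e-05) and 3.04-fold lower in Dex (-1.61 ± 0.09, adjusted p = 3.24e-07), a size like that of the synthesis enzymes. Nr1h3, the receptor LXR alpha, had 10.26 and 10.35 in CI, against 9.47, 9.54 and 9.49 in TNF and 9.76, 9.65 and 9.64 under Dex. It fell in both, by -0.81 ± 0.07 in TNF (limma adjusted p = 2.96e-05) and by -0.62 ± 0.07 in Dex. Its mean was lowest in TNF, as was that of Ggps1 alone among the synthesis enzymes, though TNF and Dex differed by only -0.19 ± 0.07, which did not pass.

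The SREBP2-driven set as a whole had a median difference from CI of -1.41 in Dex (20 of 22 lower, 0 higher, with 5.67% of all genes called lower) and of -0.46 in TNF (10 of 22 lower, 0 higher, with 5.23% of all genes called lower). For the LXR-driven genes Abca1, Abcg1 and Mylip the medians were -0.26 and -0.16, with Mylip the gene that changed in each. In TNF against CI the order of the medians turned with the choice of probe set. With the median over a gene's probe sets it was -0.41 for the LXR-driven and -0.33 for the SREBP2-driven genes, and with the probe set of highest variance -0.62 and -0.46. In Dex the SREBP2-driven median was the lower under each of these choices (-1.02 against -0.18, and -1.40 against -0.18). No test was made between the sets. An alternative added after the data had been seen took the beta-actin 3′ minus 5′ difference as a covariate. With it, 23 of the 30 genes were again called in Dex against CI, and 16 rather than 12 in TNF against CI. The SREBP2-driven medians were then -1.39 and -0.61. In TNF against Dex 19 rather than 18 were called, and Cyp51 was lost (0.47, limma adjusted p = 0.107). Without TNF replicate 1 the number called in TNF against CI was 7, without CI replicate 2 it was 8, and the SREBP2-driven median was -0.40 and -0.46.

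**Figure D4:**
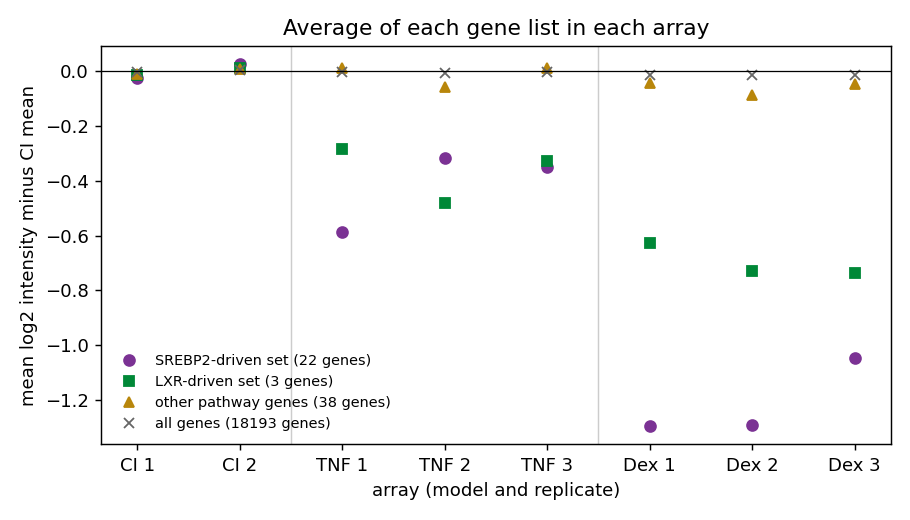
Average log2 intensity of 4 gene lists in each array, minus the mean of the CI arrays (vertical axis), for the 3 models and their replicates (horizontal axis). The 22 SREBP2-driven genes averaged -0.59, -0.32 and -0.35 in TNF replicates 1, 2 and 3, and -1.30, -1.29 and -1.05 in Dex; the average of the 3 LXR-driven genes (-0.28 to -0.74) rests largely on Mylip, and the other pathway genes and all genes stayed within 0.09 of CI.

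A further list held 45 genes of SREBP processing, cholesterol ester and lipoprotein handling, LXR partners and targets, oxysterol synthesis and isoprenoid use, of which 38 were measured. Unlike the synthesis enzymes it was split: 4 rose and 3 fell in TNF against CI (18.4% called against 8.22% of all genes, median -0.03), and 2 rose and 4 fell in Dex against CI (15.8% against 9.00%, median -0.03). In TNF against Dex 4 were higher and 3 lower (18.4% against 7.30%, median -0.05). Acss2, which makes acetyl-CoA from acetate and is an SREBP target, was the strongest faller in Dex, at -1.44 ± 0.07, from 11.62 and 11.67 in CI to 10.20, 10.23 and 10.19, and its TNF values of 11.11, 11.14 and 11.21 gave -0.49 ± 0.07, under the size threshold. Gramd1b, which carries cholesterol from the plasma membrane to the endoplasmic reticulum, fell by -1.04 ± 0.10 in TNF and by -0.97 ± 0.10 in Dex. Rxra, the retinoid receptor that pairs with LXR, rose in Dex by 0.77 ± 0.08 and was level in TNF (0.01 ± 0.08). Aacs, which turns acetoacetate into a precursor of sterols, rose in Dex by 0.56 ± 0.10, though not without Dex replicate 2 (0.499) or with the median over its probe sets (0.49). Lpcat3, an LXR target, fell in Dex by -0.54 ± 0.07, and not without CI replicate 1 (-0.49). Its TNF difference from CI, -0.49 ± 0.07, was just under the size threshold, and TNF minus Dex was 0.05 ± 0.06.

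In TNF the rises of this list lay elsewhere. Pltp, the phospholipid transfer protein and an LXR target, rose by 0.79 ± 0.10 against CI and was higher than in Dex by 1.29 ± 0.09. Cyp7b1, an oxysterol hydroxylase, rose against CI by 1.54 ± 0.15. Ch25h, which makes 25-hydroxycholesterol, rose by 1.15 ± 0.30, with TNF replicate 1 at 8.17 and the others at 6.89 and 6.88. It was no longer called when CI replicate 1 (1.14) or CI replicate 2 (1.16) was left out. The call was also lost with robust moderation (1.15, limma adjusted p = 0.0862). With the beta-actin 3′ minus 5′ difference as a covariate, Ch25h in TNF was not called against CI (1.18, limma adjusted p = 0.0654). Nor was it called there against Dex (1.18). The differences stayed at nearly the same size. Cyp7b1 and Ch25h lay below the median gene in CI, where the size of a difference is uncertain. Cav1, the caveolar coat protein that binds cholesterol, fell by -0.74 ± 0.07, and Pdss2, which makes the isoprenoid tail of ubiquinone, by -0.56 ± 0.07, although its call was lost with the median over its probe sets (-0.16).

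Markers of cell identity moved with the models too, where of all genes 5.23% were called lower and 3.00% higher in TNF against CI, and 5.67% and 3.33% in Dex against CI. Of 7 adipocyte markers 4 fell in TNF and 2 in Dex against CI, and their summed intensity ran from 86122 to 86767 in CI, 69300 to 71096 in TNF and 78680 to 84241 in Dex. Of 7 preadipocyte and fibroblast markers 1 rose in TNF (Pdgfrb, 0.93) and 3 fell in Dex (Dlk1, -0.70, Col1a1, -1.14, and Col3a1, -1.29). Their sums were 31559 to 33231 in CI, 31966 to 36520 in TNF and 15404 to 18333 in Dex. Pdgfra (-0.02), Pdgfrb (-0.41), Thy1 (-0.42) and Cd34 (-0.13) were not called in Dex. In a sum of intensities the brightest markers weigh most, here Col3a1, Dlk1 and Col1a1 in CI. Of 7 macrophage and leukocyte markers 2 rose in TNF and 1 in Dex. Their sums were 2328 to 2341 in CI, 3510 to 3735 in TNF and 2289 to 2368 in Dex. Those that rose in TNF were Lyz2 (0.55) and Cd14 (1.44), and Cd14 rose in Dex (0.98). Ptprc (0.06), Adgre1 (0.01), Cd68 (0.12), Csf1r (0.40) and Itgam (-0.05) were not called in TNF. Ptprc lay below the median gene in every model. The part of these cell types in the differences above was not tested.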

How the data were processed

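The authors deposited probe set intensities on a linear scale (6.14 to 24273.6) from Affymetrix whole-genome mouse arrays of 8 samples. The study's methods name RMA in affyPLM, and whether the deposited values are RMA values with the logarithm removed is not given in the sources used here. Log2 was taken with no pseudocount, although log2 values had been assumed. Of 45101 probe sets, 64 controls were left out and 34945 had 1 gene symbol in GEO's platform annotation. The 30 members matched RefSeq gene IDs under the same symbols. A gene was its probe set with the highest mean (18193 genes). All 3 groups, taken from sample titles, were fitted together with limma 3.58.1 in R 4.3.3 (lmFit, eBayes, two-sided, Benjamini-Hochberg over all genes), leaving 5 residual degrees of freedom. The fit was tested on simulated data.

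Full values were given for the 14 changed members with the largest difference, and for all sensing, transport, export and receptor members. Of the other pathway genes, up to 3 per direction and comparison were named, by largest called difference (Lpcat3 included). The members and lists were chosen with earlier results of these data known. Genes without a single-symbol probe set are not reported here. The alternatives are given in the closing section. Replicate numbers did not pair the samples by the labels. Figures were drawn with Python 3.11.15.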

Additional observations from a re-analysis of the deposited data

How the results depend on the processing

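The number of the 30 genes changed in Dex against CI was 23, and 20 to 25 under the other settings. In TNF against Dex it was 18, and 16 to 25. In TNF against CI it was 12, and 10 to 17 with all arrays. With 1 array left out the numbers ran from 21 to 23, stayed at 18, and ran from 7 (without TNF replicate 1) to 15 (without TNF replicate 2). Leaving out an array moved the SREBP2-driven median between -1.51 and -1.35 in Dex against CI, -0.53 and -0.40 in TNF against CI, and 0.88 and 1.06 in TNF against Dex. The LXR-driven median moved between -0.30 and -0.23, -0.22 and -0.12, and 0.0488 and 0.23, and the number of all genes called between 1552 and 1795, 1237 and 1605, and 1284 and 1420. The replicate number as a block gave 15 of the 30 in TNF against CI, with Mvd, Idi1 and Stard4 added to the 12. The mean of each gene in its model was subtracted, and the remainders were compared between same-numbered arrays of different models. They correlated from -0.095 to 0.334 over 7 pairs, with 2 of 7 over 0.1, so the numbers were not taken as pairs. The remainders of the 2 CI arrays mirror each other, so the pairs with CI are not independent. Whole arrays of different models correlated at 0.9856 to 0.9911. With the median over all probe sets of a gene, which takes in dim probe sets, the SREBP2-driven median was -1.02 in Dex against CI and 0.68 in TNF against Dex, and the LXR-driven median -0.41 in TNF against CI (SREBP2-driven -0.33) and 0.0064 in TNF against Dex. There Lss differed by 0.48 in TNF against CI, a reversal. Fdps (-0.35) and Fdft1 (-0.27) were not called in TNF against CI there, nor Lss (-0.15), Sc5d (-0.24) and Srebf2 (-0.33) in Dex against CI, nor Fdps (0.44) and Sc5d (0.47) in TNF against Dex, and Fdft1 (-0.48) and Dhcr7 (-0.49) were not in TNF against CI after quantile normalization. With the probe set of highest variance the LXR-driven median was -0.62 in TNF against CI (SREBP2-driven -0.46) and -0.0845 in TNF against Dex. There Npc2 was called higher in Dex (0.54) and in TNF (0.62) against CI, and Fdft1 (-0.496) was not called in TNF against CI. With the beta-actin covariate the SREBP2-driven median in TNF against Dex was 0.74, and Cyp51 (0.47) was not called there. Every probe set as a feature called 2992, 3305 and 2583 features in TNF against CI, Dex against CI and TNF against Dex (6.64%, 7.34% and 5.74%), because 45037 were tested, and no minimum difference called 4181, 3925 and 3800 genes. A sign change counts as a reversal only where a value was called. The arrays carry no measure of background here, which limits dim genes.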
